A study of Mus musculus with 24 samples.

Results

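Genes of butyrate uptake, fatty acid oxidation and the control of ketone body synthesis were followed through mouse colorectal tumors and normal colorectal tissue, 7 in all: Slc16a1, Slc5a8, Cpt1a, Acadm, Ppara, Ppargc1a and Pdk4. They were chosen by name, as genes of this metabolism in colonocytes, and are 7 of the 24346 gene symbols measured. These genes and the gene lists used below were chosen with earlier results of these data known. Shares over all genes are therefore set beside their counts as a description only. All 7 passed the filter on low values, which kept 13799 symbols with at least 1 FPKM (fragments mapped to a gene, scaled to transcript length and library size) in at least 4 libraries. None of the 7 is itself an enzyme of ketone body synthesis, so Acat1, Bdh1 and Oxct1 are given beside them from the list of ketone metabolism.

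The series holds 24 poly(A) RNA sequencing libraries from a comparison of c-MAF knockout with wild-type mice after azoxymethane and dextran sodium sulfate (AOM/DSS), a carcinogen and an irritant that together give colitis-associated tumors. All libraries, those of normal tissue included, carry the AOM/DSS treatment. There are 14 tumors and 10 normal samples. The titles form 5 sets: KO-8-homo, KO-8-hetero and KO-1-hetero with 3 tumors and 2 normals each, WT-young with 4 tumors and 2 normals, and WT-old with 1 tumor and 2 normals. Hetero and homo are the words of the titles for the KO sets and are kept as given, and young and old are given for the wild type only. What the leading numbers 1 and 8 stand for is not explained in the labels, nor are the kind of knockout allele, the strain, the ages of the knockout mice or the sharing of an animal between samples, so p-values measure the spread between these samples only.

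Colonocytes live largely on butyrate made by gut bacteria. Butyrate enters the cell through a proton-coupled and a sodium-coupled monocarboxylate transporter, is oxidised with other fatty acids in mitochondria to acetyl-CoA, and part of that acetyl-CoA leaves as ketone bodies. Long-chain fatty acids need the carnitine shuttle to enter the same pathway, and nuclear receptors of the PPAR family with their PGC-1 coactivators set the transcription of many of its enzymes.

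The 250 bases before an annotated start of 4 genes are shown, those of both transporters and of the oxidation enzymes Cpt1a and Acadm. All 4 were lower in tumors, and such windows can be searched for the letters that PPAR-type receptors and E-box factors are known to bind. They are RefSeq sequences of GRCm38.p6, the mm10 assembly named in the submitters' processing notes, 5′ to 3′ on the gene's strand. Capitals mark the nuclear receptor hexamer AGGTCA (on either strand, so also TGACCT) or the E-box CACGTG. The windows lie at chr19:3323051-3323300 (plus strand) for Cpt1a, chr3:153944644-153944893 (minus) for Acadm, chr3:104638414-104638663 (plus) for Slc16a1 and chr10:88885742-88885991 (plus) for Slc5a8. The Cpt1a window lies inside the annotated span of its gene, which begins at 3322326, while the others adjoin the edge of theirs.
Cpt1a: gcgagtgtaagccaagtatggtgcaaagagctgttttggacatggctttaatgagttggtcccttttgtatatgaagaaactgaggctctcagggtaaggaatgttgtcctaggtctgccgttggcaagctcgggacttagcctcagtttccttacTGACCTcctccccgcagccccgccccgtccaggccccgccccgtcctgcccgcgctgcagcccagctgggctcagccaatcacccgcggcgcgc
Acadm: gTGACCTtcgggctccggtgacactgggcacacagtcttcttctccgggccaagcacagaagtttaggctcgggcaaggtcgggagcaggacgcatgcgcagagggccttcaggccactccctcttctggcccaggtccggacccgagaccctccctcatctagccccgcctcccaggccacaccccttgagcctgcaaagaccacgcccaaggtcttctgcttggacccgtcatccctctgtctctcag
Slc16a1: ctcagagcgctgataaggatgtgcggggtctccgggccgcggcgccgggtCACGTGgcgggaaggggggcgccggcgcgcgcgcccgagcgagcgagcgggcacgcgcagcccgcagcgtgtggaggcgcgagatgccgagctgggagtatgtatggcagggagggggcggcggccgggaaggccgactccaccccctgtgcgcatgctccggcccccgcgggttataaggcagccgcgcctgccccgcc
Slc5a8: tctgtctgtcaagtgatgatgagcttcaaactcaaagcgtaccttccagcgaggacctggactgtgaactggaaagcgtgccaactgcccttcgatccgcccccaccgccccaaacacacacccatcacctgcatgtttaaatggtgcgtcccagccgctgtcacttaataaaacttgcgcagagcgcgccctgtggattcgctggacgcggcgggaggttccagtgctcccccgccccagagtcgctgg
AGGTCA was present, on the antisense strand, in the windows of Cpt1a and Acadm and in none of the other 5 members, against 16.3% of 32851 mouse promoters, each searched over the 300 bases that run to 50 after the start. The direct repeat AGGTCANAGGTCA, the letters of an idealised PPAR element, was in 0 of 7 and in 0.0396% of all promoters, and the extended hexamer TCAAGGTCA was in 0 of 7 and in 0.423% (both strands; both contain AGGTCA). The E-box letters CACGTG were in the Slc16a1 window alone among the 7, against 7.15% of all. CpG pairs in the same 300 bases numbered 42 in Slc16a1, 30 in Ppara, 22 in Cpt1a, 20 in Slc5a8, 13 in Acadm, 12 in Pdk4 and 5 in Ppargc1a, against a median of 7 over all promoters. A match of these letters is a description of the sequence, not a binding site.

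Several libraries stood apart from their labels or their group. Maf, the targeted gene, was not lower with the knockout label: the 9 KO tumors held 2.62 to 7.40 FPKM (median 4.46), the WT-young tumors 1.63 to 2.26 and the WT-old tumor 7.26, and a gene-level FPKM does not separate a deleted exon from the rest. "KO" and "WT" below therefore mean libraries labelled so. Relative depth, read from the steps of low FPKM values, ranged from 0.697 to 1.87 of the median library, and 12074 to 13290 symbols reached 1 FPKM. Xist was high in 6 libraries, KO-1-hetero tumor 3 and both normals and KO-8-hetero tumor 3 and both normals. Hoxb6, a gene of more proximal colon position, was at 2 FPKM or more in 6 libraries. KO-8-hetero tumor 2 carried squamous and skeletal muscle transcripts (summed marker FPKM 9802 and 540), WT-young tumor 2 squamous ones (1031), and the WT-old tumor the highest lymphocyte (1438) and smooth muscle (2925) sums of the tumors. Leaving out any of these 3 tumors alone ended no tumor-against-normal call of a member with either label. No pair of libraries was identical.

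Of the 7 genes, 5 were lower in tumors than in normal tissue with either genotype label: Slc5a8, Slc16a1, Ppara, Acadm and Cpt1a. Ppargc1a and Pdk4 did not pass the test with either label, and none of the 7 was higher. Over all genes tested, 14.8% were called lower in WT-labelled tumors and 23.2% in KO-labelled tumors (limma on log2(FPKM + 1), Benjamini-Hochberg adjusted p under 0.05 over 13799 genes, two-sided), against 5 of 7 here. The median tumor-minus-normal difference of the 7 was -0.96 on the log2(FPKM + 1) scale (WT label) and -0.97 (KO label), against 0.02 over all genes with each. In Ppara all 14 tumors lay below every one of the 10 normals, a separation that 3.43% of all tested genes showed in that direction. It was nearly reached by Acadm and Slc16a1 (13 of 14 tumors below every normal), Slc5a8 (12) and Cpt1a (11), and not approached by Ppargc1a (3) or Pdk4 (0).

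**Figure D1:**
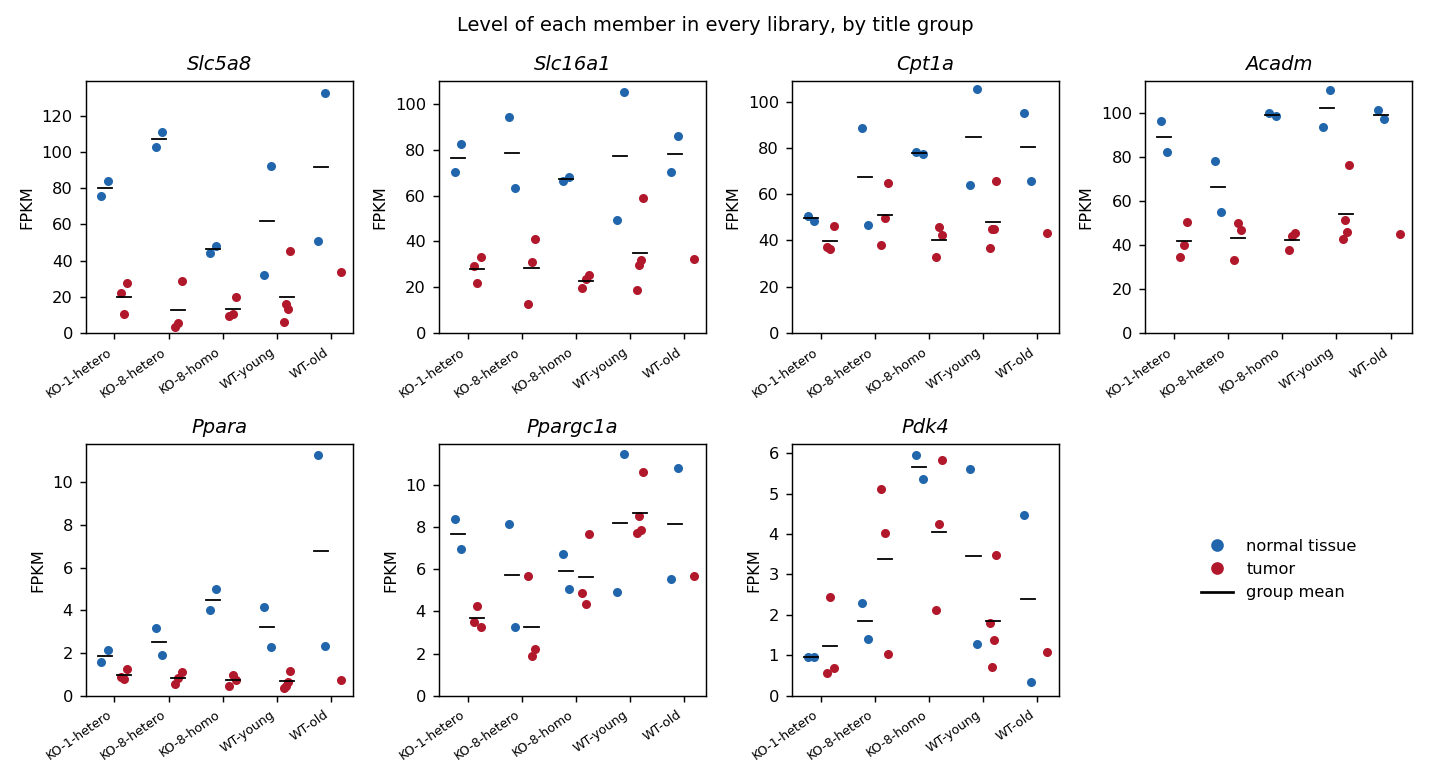
FPKM (linear axis) of the 7 genes in each of the 24 libraries by title set and tissue, with 1 point per library and a line at the set's mean. Tumor points of Slc5a8, Slc16a1, Acadm, Cpt1a and Ppara sit mostly under the normal points, while those of Ppargc1a and Pdk4 overlap them.

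Slc5a8 (SMCT1), the sodium-coupled butyrate transporter of the apical membrane, gave the largest differences among the 7. In WT-young tumors it was at 6.01, 15.7, 13.3 and 45.4 FPKM and in the WT-old tumor at 33.5, against 31.9 and 92.2 in WT-young normals and 50.8 and 133 in WT-old normals. KO tumors ranged from 3.27 to 28.9 FPKM (median 10.6, n = 9) and KO normals from 44.2 to 111 (median 80.0, n = 6). With the KO label no tumor reached the lowest normal, and with the WT label tumor 4 of WT-young and the WT-old tumor lay within the range of the normals. The difference was -1.82 (SE 0.568, adjusted p = 0.0192) with the WT label and -2.47 (SE 0.446, adjusted p = 0.000149) with the KO label. The WT call was lost without WT-young tumor 1 (-1.45, adjusted p = 0.0632), WT-young normal 2 (-1.66, 0.0525) or WT-old normal 2 (-1.49, 0.0716). It was also lost without all 3 WT-old libraries (-1.73, 0.1001), with the title sets weighted equally (-1.50, 0.0739) and with a replicate block (-1.77, 0.0550).

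Slc16a1 (MCT1), the proton-coupled carrier of butyrate, lactate and ketone bodies, lies on chromosome 3 at 104638664 to 104658462 (mm10). It was at 18.7, 29.6, 31.8 and 58.9 FPKM in WT-young tumors and 32.1 in the WT-old tumor, and at 49.4, 105, 70.3 and 86.1 in the 4 WT normals. KO tumors held 12.5 to 41.0 FPKM (median 25.2) and KO normals 63.1 to 94.4 (median 69.2). The groups did not overlap with the KO label, and with the WT label WT-young tumor 4 alone lay above the lowest normal. The log2 difference of Slc16a1 was -1.20 in the WT-labelled tumors (SE 0.286, adjusted p = 0.00348) and -1.51 in the KO-labelled ones (SE 0.225, adjusted p = 1.95e-05).

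The lactate exporter of the same family moved the other way. Slc16a3 (MCT4), typical of glycolytic cells, held 7.76 to 46.4 FPKM in tumors against 1.25 to 6.38 in normals, and rose by 2.44 with the WT label (adjusted p = 0.0002) and 2.14 with the KO label (1.8e-05). Its relative Slc16a6 and the chaperone Emb (embigin) also rose with both labels, Emb by 1.29 and 1.17, while Bsg (basigin), the chaperone that MCT1 and MCT4 share, fell by 0.72 with each. Of the 11 measured genes of monocarboxylate transport and sensing, 3 were higher and 7 lower with both labels, against 12.1% and 12.9% of all tested genes. The butyrate receptor gene Ffar2 was among the lower genes (-1.39 with the WT label, adjusted p = 0.0404, a call lost under 12 of 21 alternatives, and -1.30 with the KO label, 0.0104), and Hcar2, the receptor for butyrate and β-hydroxybutyrate, was higher with the KO label (1.17, adjusted p = 0.00678) and not called with the WT label (1.04, 0.0679).

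Cpt1a, the carnitine palmitoyltransferase that admits long-chain acyl groups to mitochondria, showed the smallest of the 5 called differences. The WT tumors held 36.9, 44.9, 45.0, 65.9 (WT-young) and 43.2 FPKM (WT-old), and the WT normals 63.9, 105, 95.2 and 65.7. KO tumors ranged from 32.7 to 64.8 (median 42.4) and KO normals from 46.7 to 88.5 (median 64.1). Single tumors with either label reached into the normal range, WT-young tumor 4 and KO-8-hetero tumors 2 and 3. The difference was -0.79 (SE 0.218, adjusted p = 0.00964) with the WT label and -0.54 (SE 0.172, adjusted p = 0.0130) with the KO label. Without the 6 high-Xist libraries the KO value was -0.95 (adjusted p = 0.00423), a fit in which the 2 KO-8-homo normals, both with high Hoxb6, are the only KO normals left. The WT call was lost without the 3 WT-old libraries (adjusted p = 0.0630) and with the Hoxb6 to Hoxb8 level as a covariate (-0.61, 0.0566). Cpt2, the inner-membrane partner, also fell with both labels (-0.59 and -0.44), as did Mlycd, which removes the Cpt1 inhibitor malonyl-CoA (7.56 to 11.8 FPKM in tumors against 17.1 to 32.1 in normals, -1.09 with adjusted p = 3.72e-05 and -1.02 with 1.58e-06).

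Acadm, the medium-chain acyl-CoA dehydrogenase, had the smallest standard errors of the 7. It stood at 42.9, 51.6, 45.9 and 76.2 FPKM in WT-young tumors and 45.0 in the WT-old tumor, and at 93.5, 111, 101 and 97.1 in WT normals. KO tumors held 33.3 to 50.4 (median 44.1) and KO normals 54.9 to 99.8 (median 89.2). The groups did not overlap within either label, and WT-young tumor 4 was the 1 tumor above the lowest normal of the series, KO-8-hetero normal 2. The tumor level was close to 1 log2 unit lower with each label (-0.96, SE 0.174, adjusted p = 0.000445, and -0.97, SE 0.137, adjusted p = 1.09e-05).

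The list of mitochondrial β-oxidation around Acadm had 15 of 19 genes lower with both labels and 0 higher, against 12.9% of all tested genes lower and 12.1% higher with both labels. Acads, the short-chain dehydrogenase that acts on butyryl-CoA, went from 51.0 to 175 FPKM in normals to 17.3 to 50.2 in tumors (-1.84 with the WT label, adjusted p = 9.68e-05, and -1.69 with the KO label, 4.79e-06). Acaa2, the mitochondrial thiolase, fell by 1.46 and 1.60, and Acadvl, the very-long-chain dehydrogenase, fell by 1.01 and 1.00. Acadl, the long-chain dehydrogenase, was the contrast within this list, at 64.8 to 130 FPKM in tumors and 69.6 to 122 in normals (-0.14, adjusted p = 0.581, and -0.09, 0.619).

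Ppara, the fatty-acid-sensing nuclear receptor, was low everywhere and lowest in tumors. WT tumors held 0.376, 0.459, 0.654, 1.16 (WT-young) and 0.715 FPKM (WT-old), against 4.13, 2.28, 11.3 and 2.32 in WT normals. KO tumors ranged from 0.468 to 1.23 (median 0.823) and KO normals from 1.58 to 5.01 (median 2.65). No tumor reached any normal, and the normals themselves spanned 1.58 to 11.3 FPKM. Ppara fell by 1.63 with the WT label (SE 0.293, adjusted p = 0.000419) and by 1.06 with the KO label (SE 0.230, adjusted p = 0.000836), values that the added 1 FPKM makes smaller than the ratio of the levels. Without the 6 libraries with Hoxb6 of at least 2 FPKM the WT value was -0.998 (adjusted p = 0.0046), and without the high-Xist libraries, again with the KO-8-homo normals alone on the KO side, the KO value was -1.66 (0.0029).

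Ppargc1a (PGC-1α), the coactivator that drives mitochondrial biogenesis, did not pass the test of tumor against normal tissue with either label. WT tumors held 7.72, 8.57, 7.88 and 10.6 FPKM (WT-young) and 5.67 (WT-old), and WT normals 4.94, 11.5, 5.57 and 10.8. KO tumors held 1.90 to 7.68 (median 4.25) and KO normals 3.28 to 8.38 (median 6.86). Tumor and normal ranges overlapped with each label. The tumor-minus-normal difference was 0.04 with the WT label (95% interval -0.57 to 0.64, adjusted p = 0.931) and -0.54 with the KO label (95% interval -1.02 to -0.07, adjusted p = 0.0556). The KO value passed the threshold without KO-8-hetero tumor 1 (adjusted p = 0.0437), KO-8-hetero normal 2 (0.0180) or KO-8-homo tumor 3 (0.0215).

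Relatives of these regulators were lower in tumors. Ppargc1b (PGC-1β) fell by 1.31 (adjusted p = 0.000754) and 0.93 (0.000731) with the WT and KO labels, and Ppard, the PPAR form that fatty acids activate in many tissues, went from 26.4 to 104 FPKM in normals to 13.2 to 32.8 in tumors and fell by 1.57 and 1.27. Esrra, an orphan receptor that works with PGC-1, and Sirt3, the mitochondrial deacetylase, fell by 0.95 and 0.89 with the WT label and 0.92 and 1.05 with the KO label. Of the 20 measured nuclear receptors and coactivators, 9 were lower and 0 higher with both labels, against 12.9% and 12.1% of all tested genes.

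Pdk4, the pyruvate dehydrogenase kinase that spares glucose when fat is burnt, showed no tumor-normal difference past the test. WT tumors held 1.81, 0.719, 1.39, 3.49 (WT-young) and 1.08 FPKM (WT-old) and WT normals 5.62, 1.27, 4.47 and 0.332. KO tumors held 0.547 to 5.83 (median 2.44) and KO normals 0.944 to 5.96 (median 1.85). The groups overlapped over nearly their whole range. The difference was -0.34 (95% interval -1.41 to 0.73, adjusted p = 0.640) and 0.04 (-0.80 to 0.88, 0.946), intervals that leave room for a change of either sign. Without the 6 libraries with Hoxb6 of at least 2 FPKM it was 0.55 with the WT label (limma adjusted p = 0.437). With the KO label it was then 0.79 (0.0724). Pdk2, of the same family, fell by 1.30 (adjusted p = 0.00167) and 1.31 (7.03e-05). Its mean log2(FPKM + 1) over all libraries was 3.90, against 1.66 for Pdk4, 3.89 for Pdk1 and 4.03 for Pdk3. Both subunits of the mitochondrial pyruvate carrier, Mpc1 and Mpc2, were lower in each of 14 tumors than in any normal.

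**Figure D2:**
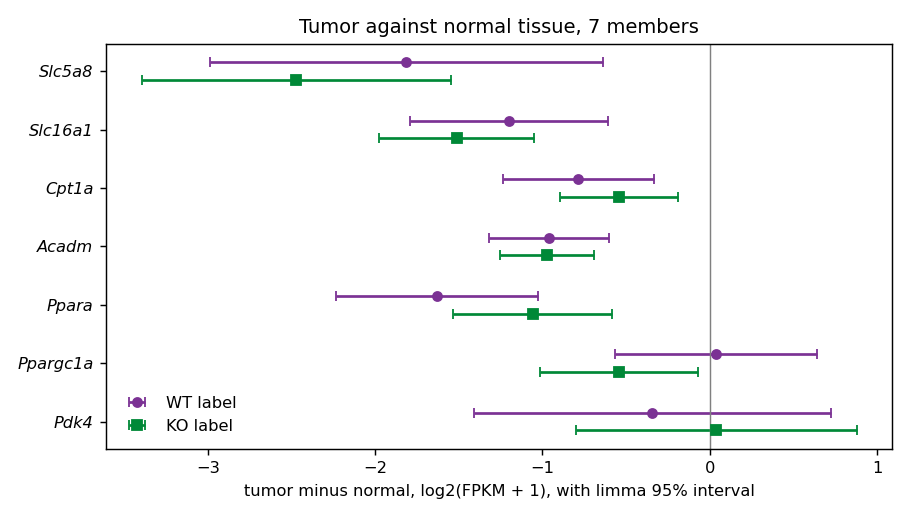
Tumor-minus-normal difference in log2(FPKM + 1) of the 7 genes, with the limma 95% interval, for the WT label (circles, 5 tumors and 4 normals) and the KO label (squares, 9 and 6). Intervals of Slc5a8, Slc16a1, Acadm, Cpt1a and Ppara lie below 0 with both labels; Pdk4 crosses 0 with both and Ppargc1a with the WT label.

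In the list of ketone metabolism, 2 of 6 measured genes were lower and 1 higher in tumors with both labels (12.9% and 12.1% of all genes). Bdh1, which turns acetoacetate into β-hydroxybutyrate, went from 49.3 to 75.7 FPKM in normals to 13.3 to 38.4 in tumors, a fall of 1.30 (adjusted p = 0.000251) and 1.23 (1.04e-05) with the WT and KO labels. Acat1, the thiolase on the path to acetoacetyl-CoA, fell by 1.02 and 1.23 with no overlap of the tissues. Oxct1, which serves ketone body use and not synthesis, was at -0.17 with the WT label (adjusted p = 0.561) and fell by 0.45 with the KO one (0.0313). Hmgcll1 was the 1 higher gene of the list (0.675 to 3.47 FPKM in tumors, 0.119 to 0.708 in normals, 0.69 and 1.03).

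Across 10 lists of this metabolism, which share some genes, 58 of 127 measured genes were lower and 6 higher in tumors with both labels, against 12.9% and 12.1% of all 13799 genes, the shares to hold beside each list. The lower genes numbered 4 of 8 in fatty acid activation, 5 of 11 in the carnitine and malonyl-CoA list, 5 of 12 in peroxisomal oxidation, 2 of 6 in ketone metabolism, 7 of 14 in the pyruvate dehydrogenase switch and 5 of 15 among PPAR targets, with 1 higher in the activation list. In the activation list Acsf2 and Acss2, acyl- and acetyl-CoA synthetases, fell by 2.83 and 1.42 with the WT label and 2.13 and 1.72 with the KO label, while Acsl4, the arachidonate-preferring synthetase, rose by 1.02 and 0.83. Among peroxisomal genes Ehhadh, the bifunctional enzyme, fell by 1.06 and 1.18 and Pex11a, which drives peroxisome division, by 1.23 and 0.75. Fabp2, a further PPAR target, went from 32.0 to 1017 FPKM in normals to 3.09 to 164 in tumors (-4.09, adjusted p = 0.00504, and -3.51, 0.00132). Glycolysis was mixed, with 2 of 18 higher and 3 lower. Pfkfb3, which makes the activator of phosphofructokinase, rose by 1.53 and 1.47, and Hk1 fell by 0.90 (adjusted p = 0.0177, lost without WT-young tumor 1, 0.0542, or normal 2, 0.0564, without the WT-old libraries, 0.0926, and relative to the pan-epithelial genes, 0.0895) and 0.85. Median differences of the lists with the WT and KO labels were lowest for mitochondrial β-oxidation, at -0.91 and -0.95, and stood at -0.12 and -0.23 for glycolysis. Acaa1a and Acaa1b, near-identical copies, and the Acsm family could share reads, so their separate values are uncertain.

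**Figure D3:**
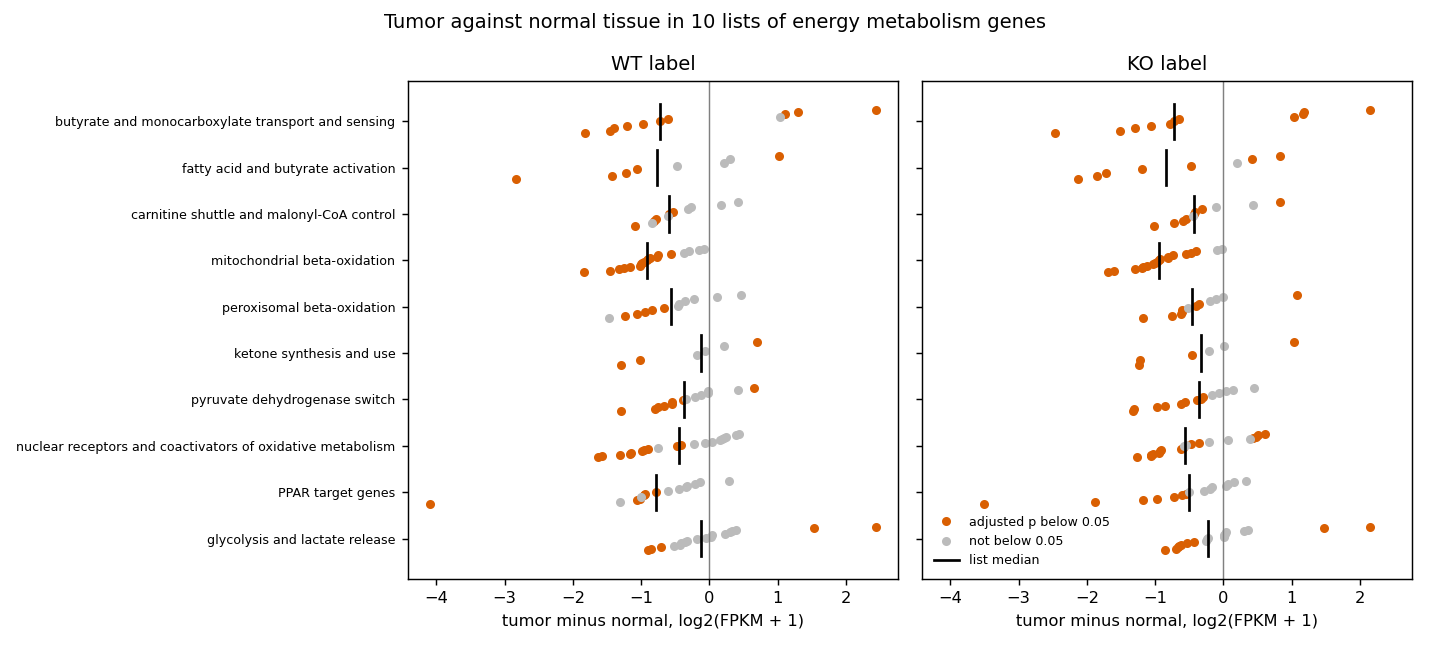
Tumor-minus-normal difference in log2(FPKM + 1) for each gene of the 10 lists, with the WT label on the left and the KO label on the right; orange points passed the adjusted threshold, grey points did not, and black bars are list medians. Most orange points of mitochondrial β-oxidation lie below 0, and those of glycolysis lie on both sides.

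Markers of other cell types moved with tissue, and their part in these differences was not tested; in bulk tissue fewer cells of a type and less RNA per cell cannot be told apart. Absorptive colonocyte markers fell in 5 of 9 genes with each label. Their mean log2 level was 4.82 to 7.79 in tumors and 8.10 to 9.35 in normals. Their summed FPKM was 5190 to 24464 in tumors and 13235 to 30045 in normals. Most of that sum was Lypd8, at 4665 to 21942 in tumors and 5059 to 19319 in normals. Pan-epithelial markers were at 4299 to 11125 summed FPKM in tumors and 6197 to 15340 in normals, with 0 and 2 of 8 genes lower with the WT and KO labels. Smooth muscle markers fell in 8 of 8 (178 to 2925 against 939 to 7200), and of the neutrophil markers 4 of 5 rose with the WT label and 5 of 5 with the KO label. When the mean pan-epithelial level of each library was subtracted from all its genes, 3 of the 7 genes were called lower with each label, against 3.12% (WT) and 6.22% (KO) of all genes. Lost were Cpt1a (-0.48, adjusted p = 0.153) and Acadm (-0.66, 0.0700) with the WT label and Cpt1a (-0.20, 0.397) and Ppara (-0.72, 0.0514) with the KO label; this subtraction moved the median of all genes from 0.02 to 0.33 and 0.36. Adipocyte markers, from cells that also oxidise fatty acids, were lower in 4 of 6 genes with the WT label and 6 of 6 with the KO label, with summed FPKM of 11.3 to 172 in tumors and 49.8 to 421 in normals; Adipoq was at 0 in 4 tumors and reached 4.91 FPKM in the others, against 1.71 to 31.0 in normals. Of 4 liver markers, Apoa1 reached at most 0.483 FPKM and Serpina1a 0.352, but Alb reached 9.21 and Ttr was at 7.53 to 47.1 in tumors and 3.52 to 131 in normals.

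Inside single title sets tissue went along with other differences. Both KO-8-homo normals held Hoxb6 at 13.0 to 16.1 FPKM, and the tumors of that set 0.0738 to 0.308. Both normals of each hetero set had high Xist, and of the tumors only tumor 3 of each did. Such differences cannot be fully told apart from tissue within these sets. Fewer members were called within single sets. KO-8-homo tumors had 4 of 7 called lower (11.2% of all genes), WT-young 3 (12.5%), KO-8-hetero 3 (21.2%) and KO-1-hetero 2 (7.2%). Acadm was called in all 4 sets, from -0.61 in KO-8-hetero (adjusted p = 0.0422) to -1.21 in KO-8-homo (0.00236). Slc16a1 was called in the 3 KO sets (-1.43, -1.57 and -1.53) and was -1.15 in WT-young (0.0509). Slc5a8 was called in KO-8-hetero alone (-3.55, 0.00181), where tumors 1 and 2 held 3.27 and 5.18 FPKM and tumor 3 held 28.9, against 103 and 111 in the normals; the other sets were at -2.04, -1.82 and -1.73, and the difference between sets was not tested.

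Several of those single-set calls rested on 1 library. The alternatives were run only for calls among the 3 lowest p of a gene list in that set. Acadm and Slc16a1 in KO-8-hetero and Slc16a1 in KO-8-homo, for instance, were not checked in this way. In KO-1-hetero, Acadm was lost without normal 1 (adjusted p = 0.0861) or normal 2 (0.0778), and Slc16a1 without any of tumors 1 and 2 and normals 1 and 2 (0.0992 to 0.198). In KO-8-homo, Ppara (-1.69, 0.00570) was lost without normal 2 (0.0658) and relative to the pan-epithelial genes (-1.39, 0.0537). In WT-young, Acadm was lost without normal 2 (0.0581), and Cpt1a (-0.79, 0.0464) without tumor 1, 2 or 3 or normal 2, with -0.43 (0.395) in the last case.

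The normal samples were not alike for Ppara, Pdk4 and Slc5a8. Hoxb6, whose colonic expression is regional, was at 16.1 and 13.0 FPKM in the 2 KO-8-homo normals, 10.1 in WT-young normal 1 and 29.2 in WT-old normal 1, and at 0.148 to 0.977 in the other 6 normals. Hoxb13, a distal gene, ran in reverse, at 6.63 to 36.0 in those 4 and 183 to 697 in the 6. These 4 normals held Ppara at 3.99 to 11.3 FPKM against 1.58 to 3.15, Pdk4 at 4.47 to 5.96 against 0.332 to 2.30, and Slc5a8 at 31.9 to 50.8 against 75.8 to 133. Cpt1a, Acadm, Ppargc1a and Slc16a1 overlapped between the 4 and the 6. All 4 had low Xist, while 4 of the other 6 were the high-Xist normals of the hetero KO sets, so among normals the Hoxb6 and Xist differences cannot be fully told apart. The sets were drawn after these values were seen and are described without a test.

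Among the 127 genes of this metabolism, 13 were higher and 10 lower in the 4 normals without overlap, against 5.11% and 4.09% of all genes. The higher ones included Vnn1 (4.57 to 10.9 FPKM against 0.531 to 1.02) and Fabp2, the intestinal fatty acid binding protein (595 to 1017 against 32.0 to 278). The lower ones included Acss2 (43.8 to 56.1 against 71.7 to 95.7) and the ketone-using Oxct1 (53.2 to 73.2 against 74.1 to 107). The 2 tumors with Hoxb6 of at least 2 FPKM, KO-1-hetero tumor 3 and KO-8-hetero tumor 3, held Ppara at 1.23 and 1.10 FPKM, against 0.376 to 1.16 in the other 12 tumors. Their Pdk4 was at 0.690 and 1.02 (0.547 to 5.83 in the other 12). Their Slc5a8 was at 27.3 and 28.9 (3.27 to 45.4). Unlike in the 4 normals, Pdk4 was thus not high and Slc5a8 not low in these 2 tumors. Without all 6 libraries with Hoxb6 of at least 2 FPKM, 5 of the 7 genes were called lower in tumors with each label. Of the 127, 47 and 69 were then lower with the WT and KO labels, against 8.95% and 23.7% of all genes.

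**Figure D4:**
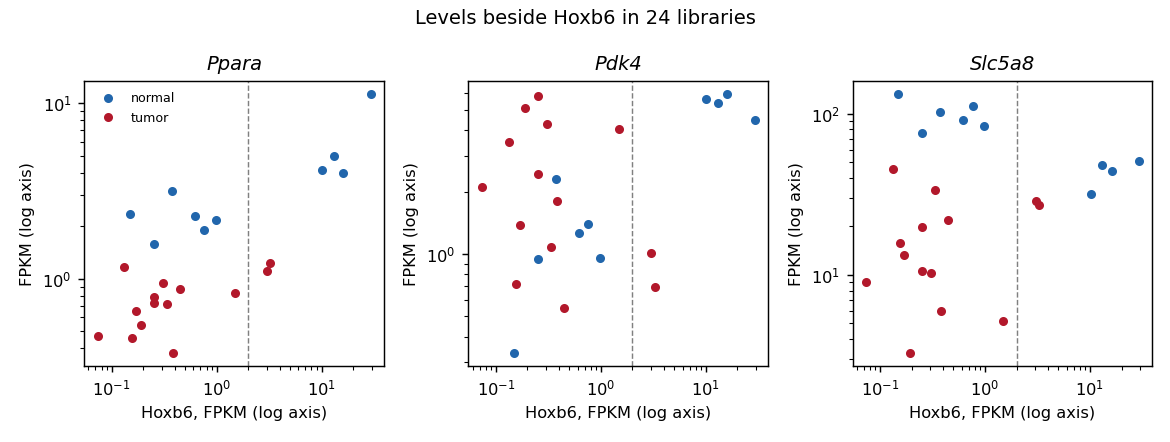
FPKM of Ppara, Pdk4 and Slc5a8 against FPKM of Hoxb6 in the 24 libraries (both axes logarithmic; tumors and normals marked separately; dashed line at 2 FPKM of Hoxb6). The 4 normals right of the line sit high for Ppara and Pdk4 and low for Slc5a8 against the other normals.

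Between genotype labels no member passed the test in tumors, in normals or in the interaction of label with tissue. Over all genes, 0.00725% were called between KO and WT tumors, 0% between KO and WT normals and 0% in the interaction (limma; 1147, 645 and 654 genes had an unadjusted p under 0.05). Ppargc1a had the lowest p of the 7 in tumors. Levels in KO tumors averaged 4.20 ± 1.78 FPKM (SD, n = 9) and WT tumors 8.09 ± 1.78 (SD, n = 5). The limma difference was -0.86 (95% interval -1.36 to -0.36, limma adjusted p = 0.374). Every KO tumor lay below each of the 4 WT-young tumors (highest 7.68 against lowest 7.72 FPKM), and 7 of 9 lay below the WT-old tumor too. KO tumors lay wholly below WT-young tumors in 1.3% of all genes, and in 1 of the 127 genes here, Ppargc1a itself.

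By title set, Ppargc1a was at 3.52, 4.25 and 3.27 FPKM in KO-1-hetero tumors, 5.71, 1.90 and 2.24 in KO-8-hetero and 4.88, 4.36 and 7.68 in KO-8-homo. Against WT-young tumors the differences were -1.05 (limma adjusted p = 0.0874), -1.28 (0.497) and -0.57 (0.592), in comparisons that share the WT-young tumors. None of the 7 genes and none of the 127 was called in these 3 comparisons, in which 2.88%, 0.00725% and 0.457% of all genes were, or between KO-8-homo and KO-8-hetero tumors (0.0507%) or the 2 hetero sets (KO-1 against KO-8, 0%; 1363 genes at an unadjusted p under 0.05). In normals Ppargc1a was at 6.44 ± 1.94 (KO, n = 6) and 8.20 ± 3.43 (WT, n = 4), a difference of -0.28 (95% interval -0.86 to 0.31, limma adjusted p = 1).

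The other 6 genes differed between KO and WT tumors by -0.52 (Slc5a8, 95% interval -1.50 to 0.45) to 0.42 (Pdk4, -0.47 to 1.31), with adjusted p from 0.633 to 0.917. Intervals of Acadm (-0.28, -0.58 to 0.02) and Cpt1a (-0.11, -0.48 to 0.27) were the narrowest. Maf level did not follow the labels, so these values compare labelled sets and not measured loss of the gene.

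**Figure D5:**
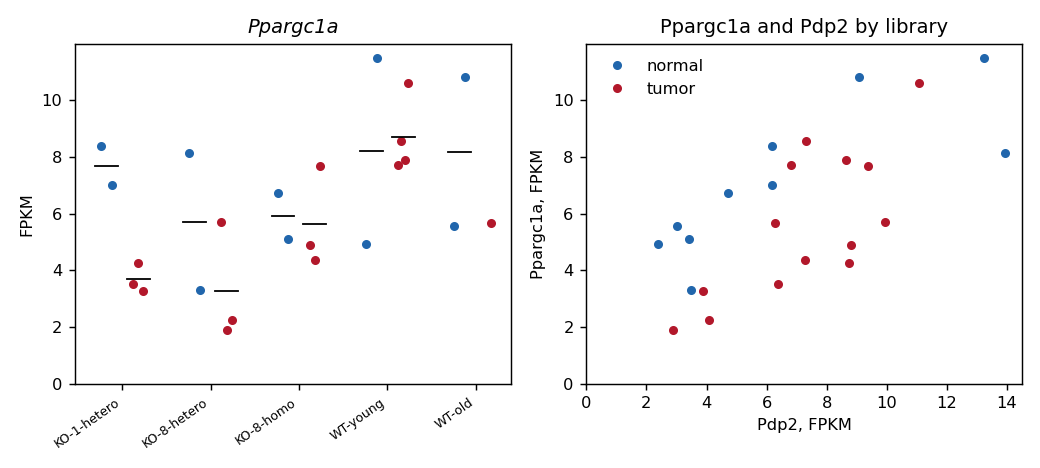
Left, FPKM of Ppargc1a in each tumor and normal by title set; right, FPKM of Ppargc1a against Pdp2 in the 24 libraries. KO tumors lie at 1.90 to 7.68 FPKM and WT-young tumors at 7.72 to 10.6.

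With the means of the 10 sets of title and tissue removed, Slc16a1 and Slc5a8 varied together across libraries (Pearson r = 0.863), as did Cpt1a with Acadm (0.829) and with Slc16a1 (0.804). Ppara went with Pdk4 (0.587), and Slc5a8 ran against Pdk4 (-0.465). With set means removed the WT-old tumor, alone in its set, is at 0, and the 2 normals of each set mirror each other. Fewer than 24 values are therefore independent. The WT-young and WT-old normals each pair a library of high with a library of low Hoxb6, so the values with Pdk4 in part restate the Hoxb6 split given above. These correlations are descriptions over 24 libraries that differ in tissue make-up and depth, and carry no p. The genes most like each member by this measure were Slc26a3, the chloride exchanger of surface colonocytes, for Slc5a8 (0.953), Mapre2 for Slc16a1 (0.954), Esrp1, an epithelial splicing factor, for Cpt1a (0.956), Iars2 for Acadm (0.931), Slc35d1 for Ppara (0.953), with Enpep, a brush-border aminopeptidase, next (0.922), and 3110021N24Rik for Pdk4 (0.834). For Ppargc1a it was Pdp2, a pyruvate dehydrogenase phosphatase (0.930, and 0.654 with the set means left in). Wdr59 (0.926) and N4bp2 (0.915), both outside the lists of this metabolism, were nearly as close to Ppargc1a.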

How the data were processed

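Poly(A) RNA of 24 mouse colorectal samples was sequenced by the authors (miRNeasy extraction and stranded TruSeq libraries, per the labels' protocols). The deposited values are FPKM per gene symbol, made by the authors, per the file headers. The submitters' processing notes name TopHat2 2.1.1, Bowtie2 2.2.8, SAMtools 0.1.18, Cuffdiff 2.2.1 and mm10; the annotation is not given in the sources used here. No count model was run on these FPKM, total depth is unknown and no counting intervals are given.

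Values were tested as log2(FPKM + 1), with symbols of at least 1 FPKM in at least 4 libraries, in limma 3.58.1 (R 4.3.3; empirical Bayes with a mean trend; Benjamini-Hochberg over 13799 genes; two-sided; threshold 0.05). The KO and WT comparisons pooled the spread of 4 cells (label by tissue), and those of single title sets that of 10. The test script was checked on simulated data. Some list genes are not reported here and were left out of list counts. Members, pathway lists and marker lists were chosen with earlier results of these data known. The rule for named genes took the 7 members, up to 3 genes with the largest rise and 3 with the largest fall per pathway list among those called with both labels, and for each member the 3 genes with the highest within-set Pearson r; other list genes named, such as Acadl, Acadvl, Oxct1, Hcar2 and Cpt2, were chosen after their values were seen. Promoter windows are RefSeq's (GRCm38.p6); all 7 members matched. Alternatives were pseudocount, filter, scaling, weighting, a replicate block, and leaving out each library in turn; 3 more, on Hoxb6 and Xist, were chosen after seeing the data. Python 3.11.15 with pandas 2.3.3 made tables and figures.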

Additional observations from a re-analysis of the deposited data

Results flagged for a closer look

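In each group of 4 to 10 libraries the gap between an extreme library and its nearest neighbour was set against the group's range (Dixon's test at the 95% level), and 2 of 35 sets passed; chance gives about 1 in 20. WT-young tumor 4 stood apart from the other 4 WT tumors for Cpt1a, at 65.9 FPKM against 45.0 in the nearest, and for Acadm, at 76.2 against 51.6. It also held the highest Slc16a1, Slc5a8, Ppara, Ppargc1a and Pdk4 of the WT tumors. This library also had the highest summed pan-epithelial (11125 FPKM) and absorptive colonocyte (24464 FPKM) markers of the 14 tumors. By mean log2 level its absorptive colonocyte markers (7.782) came just after those of KO-8-hetero tumor 3 (7.791). Its mean log2 fibroblast level (4.22) was the lowest of the 14 tumors. The part of these markers in the values above was not tested.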

How the results depend on the processing

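Over the 7 members, 260 of 280 values under other settings and 273 of 303 without 1 library kept their direction and their side of the threshold. These totals include differences that were never called, among them all 7 between KO and WT tumors, which had no call to lose. Other named genes lost their call in 92 of 1092 values under other settings and in 137 of 1217 without 1 library. The calls of members that were lost are given above, each beside its gene. Ppargc1a with the KO label was called under that covariate (0.00897), equal weighting (0.0485) and median-of-ratios scaling (0.0493). Members called lower numbered 4 to 5 (WT) and 5 to 6 (KO) without 1 library. Signs that turned were those of differences not called: Ppargc1a with the WT label was -0.12 under equal weighting, -0.44 without the Hoxb6 libraries, -0.31 with the covariate and -0.15 to 0.21 without 1 library; Pdk4 with the WT label was 0.55 without the Hoxb6 libraries, 0.26 with the covariate and -0.77 to 0.0011 without 1 library; Pdk4 with the KO label was -0.71 without the high-Xist libraries and -0.12 to 0.25 without 1 library; Cpt1a between KO and WT tumors was -0.19 to 0.017 without 1 library.

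Counts of called genes moved more. In WT-labelled tumors against normals, 4192 genes (2143 higher, 2049 lower) became 2040 (1610 and 430) relative to the pan-epithelial genes, 2682 without WT-old and 2391 without the Hoxb6 libraries; with the KO label, 6520 (3321 and 3199) became 5103 (4245 and 858) relative to those genes and 3670 without the high-Xist libraries. Between KO and WT tumors 1 gene was called, and 0 with a pseudocount of 0.1, with no filter, relative to the pan-epithelial genes, without a trend, without WT-old, with the compared libraries only, and without the Hoxb6 or high-Xist libraries; equal weighting gave 771 (206 and 565). Normals gave 7 and the interaction 218 under equal weighting, against 0 for each; without the Hoxb6 libraries they gave 7 and 6, and without the high-Xist libraries the interaction gave 7. Relative to the pan-epithelial genes the tumor-normal counts were 377 (KO-1-hetero), 1343 (KO-8-homo) and 1418 (WT-young), and the tumor comparisons 74 (KO-1-hetero against WT-young), 3 (KO-8-homo against WT-young), 0 (KO-8-homo against KO-8-hetero) and 5 (KO-1-hetero against KO-8-hetero, 3 with a pseudocount of 0.1). Without 1 library the counts ranged over 0 to 2 for KO against WT tumors, 0 to 1 for the interaction, 55 to 1744 (KO-1-hetero), 2506 to 6795 (KO-8-hetero) and 737 to 2335 (KO-8-homo) for tumor against normal, 15 to 349, 0 to 242 and 18 to 49 for those 3 sets against WT-young tumors, 0 to 342 for KO-8-homo against KO-8-hetero and 0 to 160 for KO-1-hetero against KO-8-hetero. The cause of these shifts was not tested.

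Tumors and normals of the same replicate number showed no common pairing (8 same-numbered pairs, r of their deviations -0.159 to 0.355, 1 above 0.1). Each of these sets has 2 normals whose deviations mirror each other, so this check cannot decide whether samples were paired. In the hetero KO sets the tumors of these pairs held Xist at 0.0455 to 0.0621 FPKM and the normals at 7.38 to 30.3. With a replicate block the counts were 2230 for WT tumors against normals, 0 for KO against WT tumors, 230 and 0 for KO-1-hetero and KO-8-hetero against WT-young tumors, 15 for KO-8-homo against KO-8-hetero and 12 for KO-1-hetero against KO-8-hetero; Slc5a8 with the WT label had an adjusted p of 0.0550 under the block and Ppargc1a with the KO label 0.0182. Sets of 2 normals and FPKM without counts limit what small differences can show.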
